A study of Homo sapiens with 18 samples.

Results

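IL-1β was left on ECV304 cells without any other agent, and the transcripts present 3 h after its addition were set against those present 1 h after it. The comparison used 6 of the 18 arrays of the series: the 3 replicates of cells given IL-1β alone for 3 h and the 3 replicates of cells given IL-1β alone for 1 h. ECV304 is an established human line that the labels describe as having both endothelial and epithelial characteristics. It is widely known as a derivative of the T24 bladder carcinoma line. All cells of the series, in every group, were kept for 24 h in medium with 1% fetal bovine serum and then received IL-1β at 100 IU/ml. The control groups at 1, 3 and 6 h received nothing else. In the 3 matching groups the capillary-protecting drug aminaphtone was present at 6 µg/ml. The 3 replicates of a time point are labelled as independent. The p-values rest on the spread between replicate cultures of 1 line, pooled over all 6 groups, those with aminaphtone included. No group lacked IL-1β, so time since the cytokine cannot be told apart from time in culture after starvation.

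IL-1β binds the receptor IL1R1 together with its accessory chain IL1RAP. The complex signals through the IRAK kinases and TRAF6 to NF-κB and to the MAP kinases. The first transcripts to appear are those of immediate early genes, which need no new protein and whose mRNAs are short-lived. Cytokines, adhesion molecules, proteases and the inhibitors that switch NF-κB off again are classic later products of the same pathway.

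Promoters of many genes of both kinds carry short elements through which these signals act, and 5 examples are printed because their genes take part in the results that follow. They are the 250 bases before the annotated transcription start, from RefSeq on GRCh38.p14, written 5′ to 3′. Capitals mark matches to the NF-κB consensus in the chemokine genes CXCL1, CXCL6 and CCL20 and to the CArG box, the element bound by SRF, in EGR1 and SRF.
CXCL1 (chr4:73869143-73869392, plus strand): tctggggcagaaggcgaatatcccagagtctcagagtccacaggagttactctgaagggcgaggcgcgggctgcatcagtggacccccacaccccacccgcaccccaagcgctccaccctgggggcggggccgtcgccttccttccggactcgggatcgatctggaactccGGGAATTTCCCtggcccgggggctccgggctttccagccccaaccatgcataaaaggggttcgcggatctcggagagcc
CXCL6 (chr4:73836428-73836677, plus strand): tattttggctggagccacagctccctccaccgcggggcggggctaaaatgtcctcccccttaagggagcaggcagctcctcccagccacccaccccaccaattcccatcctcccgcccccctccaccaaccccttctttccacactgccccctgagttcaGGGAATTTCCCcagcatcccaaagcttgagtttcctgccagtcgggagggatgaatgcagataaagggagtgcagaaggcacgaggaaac
CCL20 (chr2:227813592-227813841, plus strand): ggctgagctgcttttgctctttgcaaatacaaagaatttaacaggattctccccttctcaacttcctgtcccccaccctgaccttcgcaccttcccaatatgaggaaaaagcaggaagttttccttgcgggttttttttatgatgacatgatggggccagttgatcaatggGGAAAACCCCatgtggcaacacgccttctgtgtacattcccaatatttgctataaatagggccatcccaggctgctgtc
EGR1 (chr5:138465229-138465478, plus strand): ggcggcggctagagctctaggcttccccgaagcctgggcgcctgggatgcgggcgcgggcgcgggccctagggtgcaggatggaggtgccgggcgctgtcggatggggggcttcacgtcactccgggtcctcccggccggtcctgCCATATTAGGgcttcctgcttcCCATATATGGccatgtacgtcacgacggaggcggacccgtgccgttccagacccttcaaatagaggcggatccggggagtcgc
SRF (chr6:43171019-43171268, plus strand): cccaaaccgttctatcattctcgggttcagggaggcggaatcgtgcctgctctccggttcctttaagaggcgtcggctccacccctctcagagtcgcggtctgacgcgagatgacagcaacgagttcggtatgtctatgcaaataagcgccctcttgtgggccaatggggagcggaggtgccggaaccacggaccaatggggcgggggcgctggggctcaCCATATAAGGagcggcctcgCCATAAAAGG

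The last NF-κB match began 78 bases before the start in CXCL1, 89 bases before it in CXCL6 and 79 bases before it in CCL20. In EGR1 the last of 2 CArG boxes began 83 bases before the start, and in SRF it began 10 bases before it. Of the genes in the NF-κB, chemokine and interleukin lists that were called higher at 3 h (adjusted p under 0.05 in limma), 23 of 30 had a promoter entry, and 8 of the 23 (34.8%) held an NF-κB match on either strand. The share was 6.25% among all 10854 tested genes with an entry and 5.05% among all 27305 promoters of the table. Of the immediate early genes called lower, 19 of 26 had an entry and 2 (10.5%), EGR1 and SRF, held a CArG box, against 1.06% of tested genes. As many, CCN2 and EGR4, held an NF-κB match (10.5%, against 6.25%). The cyclic AMP element TGACGTCA occurred in 2 of the same 19, JUND and MAFF, against 2.76% of tested genes, and in 1 of the 23 NF-κB and cytokine promoters, that of IL32. The element TGANTCA occurred in 3 of the 23 NF-κB and cytokine promoters, those of CXCL8, EBI3 and TRAF3IP2, against 4.04% of tested genes, and in none of the 19. CArG boxes were in none of the 23. Both strands were searched, and overlapping matches on opposite strands of 1 palindromic site were counted separately. A match describes letters in this window and shows no binding. The lists were put together by gene family, with earlier results of these data known, and their uncalled members were not counted. The shares therefore cannot tell whether the elements go with the change between 1 and 3 h or with the choice of lists.

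Of 28869 transcript clusters on the arrays, 15796 named clusters with a mean log2 signal above 6.193 were tested. They stand for 13805 genes. The 1 h replicates were less alike than those of any other group. Their correlations across clusters were 0.889 for replicates 1 and 2, 0.958 for 1 and 3 and 0.963 for 2 and 3, against 0.970 to 0.987 at 3 h and at least 0.975 in the other groups. The median SD of a cluster was 0.281 at 1 h and 0.161 at 3 h. The line's labelled mixed character was set against markers. Of 16 endothelial markers 9 passed the filter, among them ENG (mean log2 9.20 over the 18 arrays), ESAM (8.82), SOX18 (8.82) and CDH5 (6.99), while PECAM1, VWF, KDR, TEK, ERG, EMCN and MMRN1 lay below it. Of 17 epithelial and urothelial markers 15 passed: the keratins KRT8, KRT18 and KRT7 were the highest, at 12.38, 11.75 and 11.36, CDH1 (E-cadherin) was at 6.53, GATA3 at 6.65 and the uroplakins UPK1A, UPK1B, UPK2 and UPK3A between 6.51 and 7.19, and GRHL2 and KRT20 lay below the filter. Summed log2 signals of the 16 endothelial markers ran from 104.61 to 110.61 at 1 h and from 107.73 to 109.45 at 3 h. Those of the 17 epithelial markers ran from 136.14 to 140.72 and from 133.61 to 138.01. The 10 fibroblast markers (6 above the filter) summed to between 58.02 and 60.78 at 1 h and between 59.46 and 60.32 at 3 h, and the 9 leukocyte markers (5 above it, PTPRC and LYZ below) to between 53.09 and 55.78 and between 54.24 and 55.32. Passing the filter is a low bar. Only 5 of the 16 endothelial, 5 of the 17 epithelial, 2 of the 10 fibroblast and 1 of the 9 leukocyte markers lay above the median named cluster. The uroplakins lay between percentiles 30.3 and 43.4. In bulk RNA, fewer cells of a type and less RNA per cell cannot be told apart.

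Between 1 and 3 h the largest falls were those of immediate early transcription factors and the largest rises included secreted and surface proteins. NR4A2 fell 19.3-fold, NR4A1 15.5-fold and FOSB 10.1-fold, and NAV3, a neuron navigator protein tied to microtubules, rose 11.5-fold. In all, 2020 clusters passed an adjusted p of 0.05 in limma (12.8%). Of these 759 were higher at 3 h (4.81% of clusters tested) and 1261 lower (7.98%). By gene this was 687 higher and 1150 lower of 13805, with a median log2 difference of -0.02 over all genes tested. These are 4.98% and 8.33% of genes, the shares beside which the counts of each gene list stand. A 2-fold change was reached by 192 genes called higher and 173 called lower, a 4-fold change by 16 and 21, and an 8-fold change by 2 and 6. The values at 1 and 3 h did not overlap in 2585 clusters whatever their p (16.4%), and these included 648 of those called higher and 1104 of those called lower.

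The count depended on how spread was estimated and on single arrays at both times. With the replicate numbers, which the arrays bear out as pairs, as a block among the 6 arrays, 1560 clusters were called higher and 2277 lower, and these held all 2020. With spread estimated from the 6 arrays alone, 92 were called higher and 136 lower. In that fit 137 of the 220 called genes named in the text or its lists lost their call. The adjusted p-values given for genes below come from the fit to all 18 arrays unless another fit is named. Centring each array on its median gave 956 higher and 969 lower, so that lower calls were 50.3% of calls in place of 62.4%. Replicate 2 at 1 h was the lowest of the 3 arrays in 535 of the 759 clusters called higher (70.5%, against 33.1% of all clusters tested) and the highest in 849 of the 1261 called lower (67.3%, against 52%). Without it 539 clusters were called higher and 1131 lower, and 1209 of these were among the 2020. Without replicate 1 at 1 h, 5719 were called. Replicate 1 at 3 h was the lowest 3 h array in 951 of the 1261 clusters called lower (75.4%, against 40.1% of all). Without it 988 clusters were called, the fewest of the 18 fits that left out 1 array, and without replicate 3 at 3 h 1217, without replicate 3 at 1 h 1289. Counts within the gene lists moved with them, and they are given as ranges over those 18 fits where they moved most. The annotated genomic span of genes called higher had a median of 43.6 kb, against 23.8 kb for those called lower and 24.9 kb for all genes tested, and its part in the calls was not tested.

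**Figure D1:**
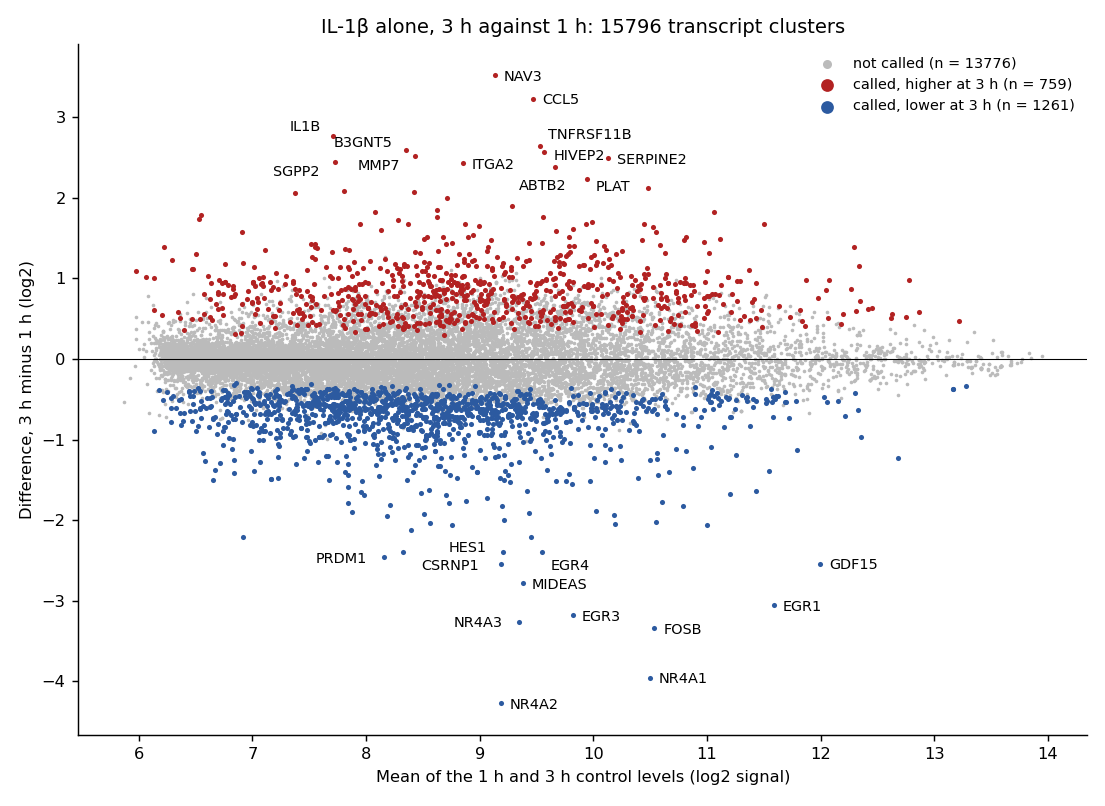
Each point is 1 of 15796 transcript clusters. The horizontal axis is the mean of the 1 h and 3 h control levels (log2 signal) and the vertical axis the log2 difference, 3 h minus 1 h; clusters called higher (759) are red, called lower (1261) blue, and the 12 largest rises and falls are named. NR4A2 lies lowest, at -4.27, and NAV3 highest, at 3.52.

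**Figure D2:**
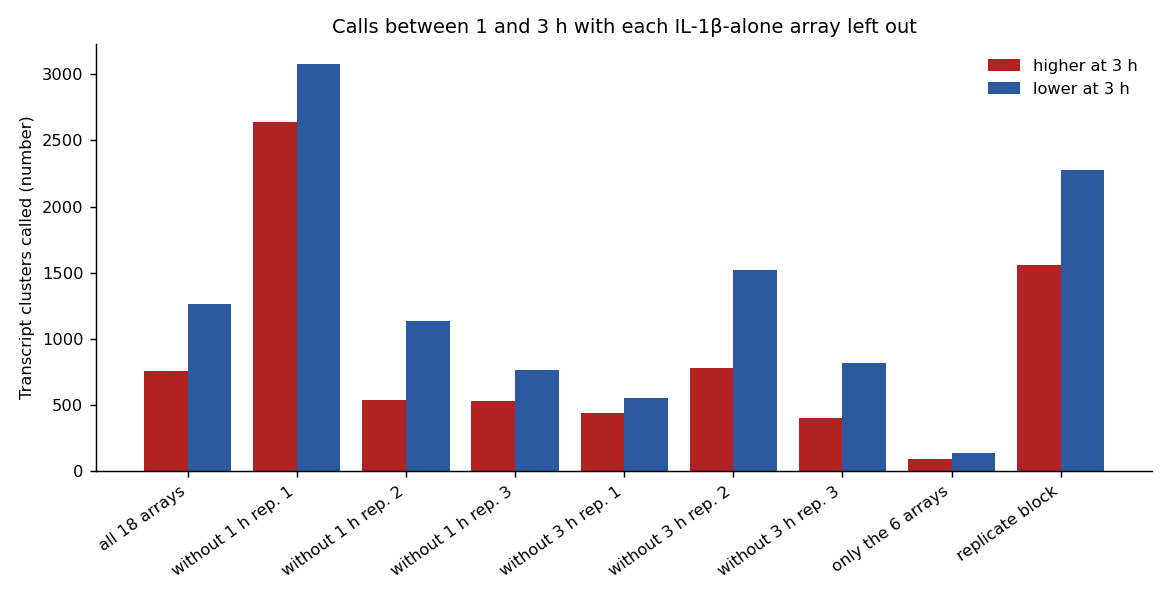
Bars count the transcript clusters called higher (red) and lower (blue) at 3 h with all 18 arrays, with each IL-1β-alone array at 1 or 3 h left out, with the 6 arrays alone and with the replicate block. Leaving out replicate 1 at 1 h gives 2643 higher and 3076 lower, and using the 6 arrays alone gives 92 and 136.

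The EGR, IER and NR4A genes, transcription factors and regulators that appear within minutes of a stimulus, fell together. Of 25 tested, 18 were called lower (72%, against 8.33% of all genes) and 1 higher (4%, against 4.98%), with a median log2 difference of -1.23. The NR4A orphan nuclear receptors were lower in all 3 members. NR4A2 read 11.62, 10.95 and 11.39 in the 1 h arrays and 7.03, 6.80 and 7.31 in the 3 h arrays (values are log2 signals in replicate order throughout). NR4A1 read 12.32, 12.51 and 12.60 at 1 h and 8.28, 8.99 and 8.29 at 3 h. NR4A3 read 11.36, 10.40 and 11.16, then 7.27, 8.58 and 7.29. In none of the 3 did the groups overlap, and at 6 h the levels stood at 6.99 ± 0.17, 7.96 ± 0.18 and 6.74 ± 0.20 in the same order (SD, n = 3). NR4A2 fell by 4.27 (SE 0.18, adjusted p = 2.78e-10), NR4A1 fell by 3.96 (SE 0.19, adjusted p = 1.33e-09) and NR4A3 fell by 3.26 (SE 0.39, adjusted p = 4.07e-05).

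The EGR zinc finger factors, which relay growth and stress signals, were also lower. EGR1 read 13.11, 13.09 and 13.14 at 1 h and 9.56, 10.90 and 9.71 at 3 h. EGR3 read 11.38, 11.19 and 11.65 at 1 h and 7.66, 9.32 and 7.71 at 3 h. EGR4 read 10.21, 11.16 and 10.87 at 1 h and 8.27, 8.68 and 8.09 at 3 h. No 3 h array reached the level of any 1 h array, and replicate 2 was the highest of the 3 h arrays for each of the 3 genes. EGR1 fell by 3.06 (SE 0.34, adjusted p = 2.36e-05), EGR3 fell by 3.18 (SE 0.40, adjusted p = 6.61e-05) and EGR4 fell by 2.40 (SE 0.21, adjusted p = 2.67e-06). CSRNP1, a nuclear factor of the same early class, went from 10.16, 10.86 and 10.36 to 7.48, 8.45 and 7.80. GADD45B, a stress sensor that binds MAP kinase kinases, went from 10.15, 11.01 and 10.50 to 8.46, 8.20 and 8.37. CSRNP1 was 5.85-fold and GADD45B 4.62-fold lower, and neither overlapped between times. SRF, whose promoter is printed above and which drives many immediate early genes, fell by 0.83 (SE 0.19, adjusted p = 0.0082). The one member called higher was BTG3, an antiproliferative protein, with a difference of 0.74 that passed in 15 of the 18 fits leaving out 1 array.

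AP-1 is the dimer of FOS and JUN family proteins that IL-1β activates through MAP kinases. Of 14 AP-1 factors tested, 8 were called lower (57.1%, against 8.33% of all genes) and none higher, with a median difference of -0.96. The same 8 did not overlap between the times. FOSB read 12.04, 12.35 and 12.23 at 1 h and 8.48, 9.67 and 8.44 at 3 h, where replicate 2 again lay above the other two. FOS read 9.79, 9.92 and 9.64 at 1 h and 7.65, 7.93 and 7.59 at 3 h, a tight pair of groups. JUNB read 11.19, 11.47 and 11.20 at 1 h and 9.43, 10.24 and 9.88 at 3 h. FOSB fell by 3.34 (SE 0.33, adjusted p = 5.44e-06), FOS fell by 2.06 (SE 0.15, adjusted p = 2.21e-07) and JUNB fell by 1.44 (SE 0.17, adjusted p = 3.41e-05). FOSL1, a FOS relative usually induced later and kept longer, fell by 1.19 (SE 0.16) to 10.48, 10.83 and 10.65. The other members called lower were JUND, which fell by 0.94 (SE 0.18), ATF3, which fell by 0.98 (SE 0.15), MAFF, which fell by 1.18 (SE 0.21), and JUN, which fell by 1.26 (SE 0.23), while BATF, BATF3, FOSL2, JDP2, MAF and MAFG were not called.

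**Figure D3:**
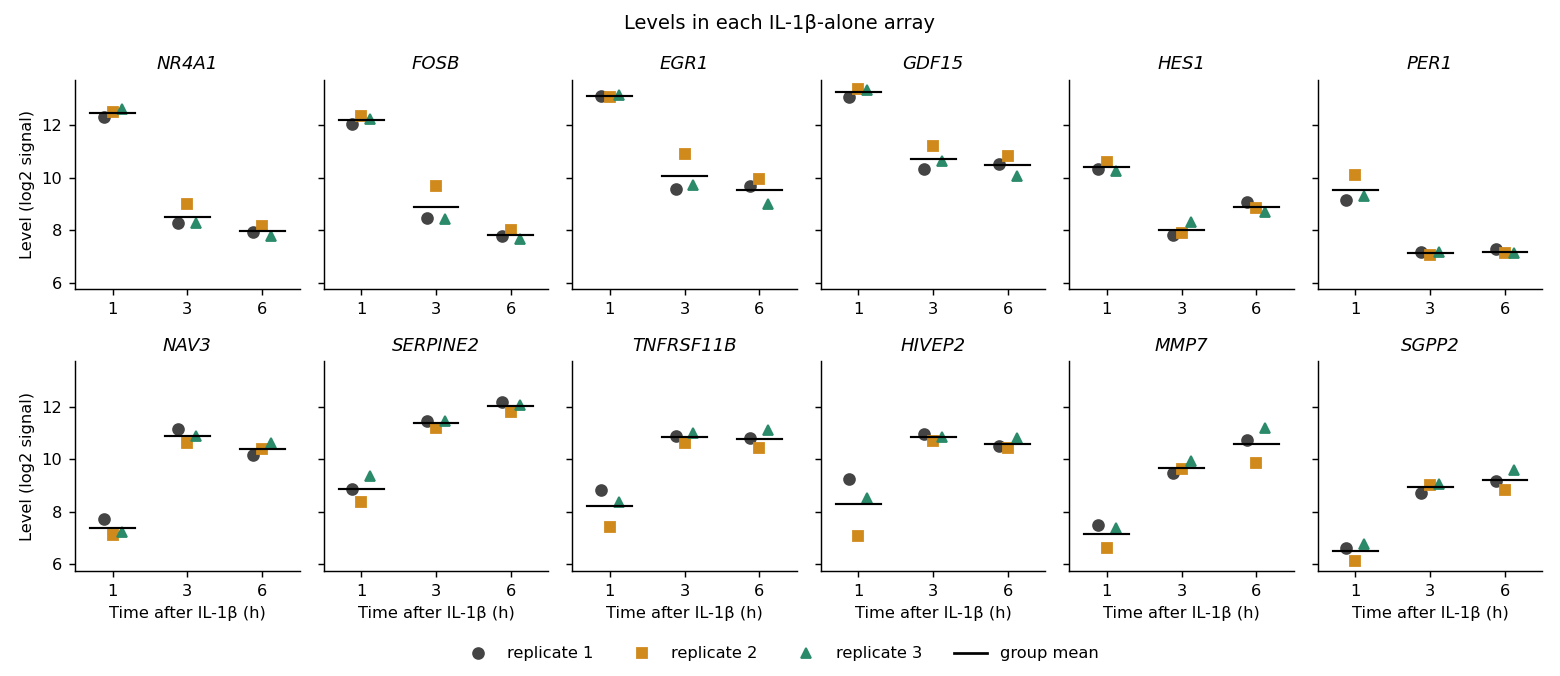
Log2 signals of 12 genes in each IL-1β-alone array at 1, 3 and 6 h; symbols mark the replicate number and bars the mean of 3 arrays. The upper row holds genes called lower at 3 h, among them NR4A1 from 12.32, 12.51 and 12.60 to 8.28, 8.99 and 8.29, and the lower row genes called higher, among them NAV3; the 6 h arrays are shown for their level only.

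Genes listed as repressors and other regulators of transcription were often lower at 3 h as well. Of 24 repressors and chromatin-linked regulators tested, 11 were called lower (45.8%, against 8.33% of all genes). Another 2 were called higher (8.33%, against 4.98%), and the list median was -0.38. MIDEAS, a scaffold of the mitotic deacetylase complex, read 10.60, 10.72 and 10.98 at 1 h and 7.98, 8.08 and 7.91 at 3 h. PRDM1, the repressor also called BLIMP1, read 9.53, 9.12 and 9.52 at 1 h and 6.92, 6.95 and 6.92 at 3 h. HES1, the Notch-pathway repressor, read 10.35, 10.59 and 10.26 at 1 h and 7.83, 7.88 and 8.30 at 3 h. These 3 genes had some of the smallest spreads among the large falls: MIDEAS fell by 2.78 (SE 0.12), PRDM1 fell by 2.46 (SE 0.12) and HES1 fell by 2.40 (SE 0.16), with adjusted p at or below 1.22e-07. At 6 h MIDEAS stood at 8.03 ± 0.07, PRDM1 at 7.36 ± 0.03 and HES1 at 8.88 ± 0.20 (SD, n = 3). ID2, which blocks helix-loop-helix factors, fell by 1.73 (SE 0.13). The members called higher were HIVEP2, a large zinc finger protein that binds κB-like sites, and ZEB2, a repressor of epithelial genes. HIVEP2 read 9.26, 7.07 and 8.54 at 1 h and 10.98, 10.71 and 10.86 at 3 h, so that the 1 h arrays were spread over more than the 3 h arrays while the groups stayed apart. It rose by 2.56 (SE 0.35, adjusted p = 0.000155), by 1.96 without replicate 2 at 1 h and by 3.05 without replicate 1, while ZEB2 rose by 0.81 (SE 0.23, adjusted p = 0.0279), a call that held in 13 of the 18 fits leaving out 1 array.

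Brakes on the MAP kinases were called lower more often than higher. Of 16 tested, 5 were called lower (31.2%, against 8.33% of all genes tested). Only 1 was called higher (6.25%, near the 4.98% of all genes), and the list median was -0.20. SPRY2, an inhibitor of receptor tyrosine kinase signalling, read 10.68, 10.60 and 10.62 at 1 h and 9.48, 9.51 and 9.72 at 3 h. DUSP1, the phosphatase that switches off p38 and JNK, read 12.27, 12.41 and 12.38 at 1 h and 10.90, 11.69 and 11.08 at 3 h. SPRY2 fell by 1.06 (SE 0.11, adjusted p = 6.42e-06) and DUSP1 fell by 1.13 (SE 0.18, adjusted p = 0.000481). DUSP6, the phosphatase for ERK, fell by 1.19 (SE 0.20), and SPRY4 fell by 0.68 (SE 0.16), kept in 16 of the 18 fits leaving out 1 array. DUSP10, another phosphatase for p38 and JNK, went the other way, from 7.89, 7.36 and 8.24 to 8.63, 8.82 and 8.96 (difference 0.97, SE 0.20, adjusted p = 0.0041). Its groups did not overlap.

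A minority of the early regulators outside these families were lower. Of 15 KLF zinc finger factors, 3 were called lower and none higher (20% lower, against 8.33% of all genes tested; median -0.04): KLF10, a TGF-β-inducible repressor, fell by 1.77 (SE 0.18), KLF3 fell by 0.92 (SE 0.17) and KLF11 fell by 0.84 (SE 0.12). Of 11 circadian clock genes, 3 were called lower (27.3%, against 8.33%). PER1, the clock repressor that serum and stress also induce, read 9.16, 10.10 and 9.32 at 1 h and 7.18, 7.06 and 7.15 at 3 h. That is a 5.25-fold difference (SE 0.18 on the log2 scale, adjusted p = 3.41e-07), and at 6 h PER1 stood at 7.18 ± 0.08 (SD, n = 3). DBP, a clock output factor, fell by 0.75, and PER3, which fell by 0.65, kept its call in only 1 of the 18 fits leaving out 1 array. Of 32 Notch and Wnt genes, 8 were called lower (25%, against 8.33%) and none higher, with a median of -0.10. Over the fits leaving out 1 array, 5 to 13 were called lower. Beside HES1 these included the ligand JAG2, which fell by 1.44 (SE 0.19), and the receptor NOTCH1, which went from 9.19, 9.96 and 10.07 to 8.53, 8.49 and 8.57. NOTCH1 fell by 1.21 (SE 0.20, adjusted p = 0.000668) without overlap.

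Targets of the YAP and TEAD factors, which answer cell shape and tension, split evenly, with 6 of 24 called higher and 6 lower (median 0.15). Each is 25% of the list, against 4.98% of all genes called higher and 8.33% called lower. NUAK2, a kinase of the AMPK family, read 11.29, 11.73 and 11.67 at 1 h and 9.42, 9.65 and 9.57 at 3 h. AJUBA, a junction protein that inhibits LATS kinases, read 9.26, 10.08 and 9.52 at 1 h and 7.59, 8.10 and 7.83 at 3 h. Both fell without overlap, NUAK2 by 4.05-fold and AJUBA by 3.44-fold, and AJUBA stood at 9.07 ± 0.13 at 6 h (SD, n = 3). The matricellular protein CCN1 fell by 1.23 (SE 0.14), and AMOTL2, an angiomotin at cell junctions, fell by 1.50 (SE 0.18). The members called higher included the coactivator WWTR1 (TAZ), with a difference of 0.66 (SE 0.14), NT5E, the surface enzyme that makes adenosine (0.86, SE 0.17), and WWC1, the KIBRA scaffold (0.66, SE 0.12).

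NF-κB is the central transcription factor of the response to IL-1β. Its precursor subunits were higher at 3 h and 3 of its IκB-type inhibitors or partners lower. Of 11 subunits and IκB proteins tested, 3 were called higher (27.3%, against 4.98% of all genes tested) and 3 lower (27.3%, against 8.33%). The other 5 were not called, and the list median was -0.10. NFKB1, the p105/p50 subunit, read 10.37, 9.52 and 10.45 at 1 h and 11.03, 11.34 and 11.14 at 3 h. NFKB2, the p100/p52 subunit, read 9.99, 10.72 and 10.60 at 1 h and 11.08, 11.28 and 11.16 at 3 h. NFKB1 rose by 1.06 (SE 0.20, adjusted p = 0.00251) and NFKB2 by 0.74 (SE 0.17, adjusted p = 0.0077), each without overlap, while RELB rose by 0.50 (SE 0.16, adjusted p = 0.047) with overlapping groups and kept its call in 3 of the 18 fits leaving out 1 array. NFKBID, a nuclear IκB protein, went from 11.24, 11.83 and 11.65 to 10.12, 10.80 and 10.55. NFKBIE, the inhibitor IκBε, went from 9.78, 10.52 and 10.42 to 8.93, 9.60 and 9.20. NFKBID fell by 1.09 (SE 0.18), NFKBIE fell by 1.00 (SE 0.20), and BCL3, an IκB-like coactivator, fell by 0.63 (SE 0.19, adjusted p = 0.0406), kept in 8 of those 18 fits. With spread from the 6 arrays alone none of these calls, higher or lower, held in limma. The adjusted p was then 0.0899 for NFKB1, 0.157 for NFKB2 and 0.0604 for NFKBID. RELA and NFKBIA, the inhibitor IκBα, were chosen for mention after their values were seen: their differences were -0.11 (SE 0.14) and -0.10 (SE 0.10), and neither passed.

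The ubiquitin enzymes and adaptors that carry and damp the NF-κB signal were mostly higher. Of 19 tested, 13 were called higher (68.4%, against 4.98% of all genes) and 2 lower (10.5%, against 8.33%), with a median of 0.80. Leaving out 1 array gave 7 to 14 higher. The count was 7 without replicate 3 at 1 h or at 3 h, and 8 without replicate 2 at 1 h. TRAF1, a TRAF adaptor induced by NF-κB, read 8.07, 8.31 and 8.70 at 1 h and 9.63, 9.98 and 9.88 at 3 h. TRAF3IP2, the ACT1 adaptor of the IL-17 receptor, read 7.86, 8.08 and 8.17 at 1 h and 9.08, 9.81 and 9.55 at 3 h. TNIP1, a partner of A20, read 8.68, 9.40 and 9.12 at 1 h and 10.17, 10.40 and 10.48 at 3 h. All 3 were higher in every 3 h array than in any 1 h array. TRAF1 rose 2.77-fold, TRAF3IP2 2.72-fold, TNIP1 2.44-fold and TNFAIP8, a regulator of cell death, 2.54-fold, with adjusted p from 1.98e-05 to 7.02e-05. TNIP1 stood at 10.74 ± 0.16 at 6 h, and TRAF1 at 9.24 ± 0.11 (SD, n = 3). The members called lower were MAP3K14, the NIK kinase of the alternative NF-κB pathway, and TRAF4. MAP3K14 read 10.55, 11.34 and 11.02 at 1 h and 8.63, 9.63 and 8.98 at 3 h, so it fell by 1.89 (SE 0.26, adjusted p = 0.000149) without overlap. TRAF4 fell by 1.25 (SE 0.17). TNFAIP3, the A20 editing enzyme, named after its values were seen, differed by -0.53 (SE 0.23, adjusted p = 0.15); without replicate 2 at 1 h it differed by -0.87 (adjusted p = 0.00514).

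Upstream, 4 of 21 genes of the IL-1 receptor and Toll pathway were called higher (19%, against 4.98% of all genes) and none lower (median -0.04). Over the 18 fits leaving out 1 array, 2 to 9 were called higher. IRAK2, the kinase that sustains IL-1 signalling, read 8.30, 8.49 and 9.23 at 1 h and 10.24, 10.49 and 10.58 at 3 h, and rose 3.39-fold (SE 0.20 on the log2 scale, adjusted p = 3.37e-05). IL1RAP, the accessory chain of the receptor, read 7.50, 6.35 and 6.94 at 1 h and 8.13, 8.19 and 8.20 at 3 h, a rise of 1.25 (SE 0.24, adjusted p = 0.0032). Both genes were without overlap. TRAF6, the ubiquitin ligase below the IRAKs, rose by 0.96 (SE 0.24, adjusted p = 0.0145) and its partner TAB2 by 0.97 (SE 0.27, adjusted p = 0.0268). Replicate 2 was the lowest 1 h array for IL1RAP, TRAF6 and TAB2. TRAF6 and TAB2 kept their calls in 17 and 14 of the 18 fits leaving out 1 array.

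Of 17 chemokines tested 8 were called higher and 1 lower (52.9%, against 13.3% of all genes tested). Of 9 CC and CX3C chemokines tested, 5 were called higher and 1 lower (median 0.85), and of 8 CXC chemokines 3 were called higher and none lower (median 0.20). CCL5 (RANTES), which attracts T cells, read 7.27, 7.82 and 8.49 at 1 h and 10.98, 10.99 and 11.29 at 3 h. CCL2 (MCP-1), which attracts monocytes, read 11.76, 11.40 and 12.12 at 1 h and 12.81, 13.02 and 12.92 at 3 h. CCL20, the ligand of CCR6, read 12.60, 11.76 and 12.52 at 1 h and 13.30, 13.25 and 13.25 at 3 h. CCL5 rose 9.36-fold (SE 0.26 on the log2 scale, adjusted p = 9.13e-07), CCL2 2.23-fold (SE 0.17, adjusted p = 0.000271) and CCL20 1.97-fold (SE 0.16, adjusted p = 0.000833), all without overlap. At 6 h CCL5 stood at 11.78 ± 0.10 and CCL20 at 13.13 ± 0.10 (SD, n = 3). CCL22 rose by 1.14 (SE 0.18), and CCL28, an epithelial chemokine, fell by 0.84 (SE 0.22, adjusted p = 0.0181), kept in 16 of the 18 fits leaving out 1 array. With spread from the 6 arrays alone CCL5 and CCL2 passed in limma. CCL20, CCL22 and CCL28 did not (adjusted p = 0.089, 0.0581 and 0.177).

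Among the CXC chemokines tested, CXCL6 rose most. CXCL6 read 6.52, 6.80 and 7.07 at 1 h and 8.26, 8.15 and 8.27 at 3 h. CXCL8 (IL-8) read 12.25, 11.90 and 12.25 at 1 h and 12.67, 12.90 and 12.75 at 3 h. CXCL1 read 12.46, 12.40 and 12.87 at 1 h and 13.17, 13.17 and 13.13 at 3 h. None of the 3 overlapped, and for CXCL1 the gap between the groups was smaller than the spread at 1 h. CXCL6 rose 2.69-fold (SE 0.16 on the log2 scale, adjusted p = 2.57e-05), CXCL8 1.55-fold (SE 0.13, adjusted p = 0.00523) and CXCL1 1.49-fold (SE 0.14, adjusted p = 0.00982). With spread from the 6 arrays alone CXCL6 passed in limma, and CXCL8 and CXCL1 did not (adjusted p = 0.146 and 0.191). CXCL6 and CXCL1 are the genes whose promoters above hold an identical stretch of the NF-κB consensus in capitals, and CCL20 holds another form of it. The near relatives CXCL2 and CXCL3, named after their values were seen, differed by -0.10 (SE 0.20) and 0.11 (SE 0.21) and did not pass. The CXCL1, CXCL2 and CXCL3 transcripts are similar in sequence, and cross-hybridisation between their probes was not tested.

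Of 15 interleukins and colony-stimulating factors, 6 were called higher (40%, against 4.98% of all genes) and none lower (median 0.39). IL1B, the gene of the cytokine itself, read 6.11, 6.22 and 6.65 at 1 h and 8.57, 9.46 and 9.25 at 3 h. CSF3 (G-CSF), the granulocyte growth factor, read 8.13, 8.46 and 8.46 at 1 h and 9.34, 9.53 and 9.28 at 3 h. EBI3, a subunit of IL-27 and IL-35, read 8.07, 8.84 and 8.95 at 1 h and 9.63, 9.71 and 9.99 at 3 h. Each of these was separated between the times. IL1B rose 6.80-fold (SE 0.26 on the log2 scale, adjusted p = 3.42e-06), CSF3 2.04-fold (SE 0.15, adjusted p = 0.000321) and EBI3 2.23-fold (SE 0.19, adjusted p = 0.000768). Replicate 1 of IL1B at 1 h lay below the filter of 6.193 and replicate 2 close to it, so its fold rests on a level near background. IL36G, an IL-1 family cytokine of epithelium, rose by 0.58 (SE 0.12) from 5.94, 6.02 and 6.19, below or at the filter. IL6 and LIF, named after their values were seen, were at 12.65 ± 0.26 and 11.16 ± 0.24 at 1 h and at 12.69 ± 0.17 and 10.71 ± 0.31 at 3 h (SD, n = 3), and neither passed.

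Ligands and receptors of the TNF superfamily changed both ways, with 6 of 21 called higher and 3 lower (median 0.08). These are 28.6% and 14.3%, against 4.98% and 8.33% of all genes. TNFRSF11B (osteoprotegerin), a decoy receptor, read 8.83, 7.42 and 8.38 at 1 h and 10.90, 10.64 and 11.02 at 3 h. CD40, the receptor through which T cells activate other cells, read 9.61, 9.53 and 10.17 at 1 h and 10.51, 10.71 and 10.72 at 3 h. TNFSF10 (TRAIL), a ligand that triggers cell death, read 9.08, 6.78 and 8.20 at 1 h and 5.16, 6.39 and 5.89 at 3 h. TNFRSF11B rose 6.24-fold (SE 0.29 on the log2 scale, adjusted p = 1.76e-05) and CD40 1.84-fold (SE 0.18, adjusted p = 0.00386). TNFSF10 fell by 2.20 (SE 0.43, adjusted p = 0.00282), with replicate 2 at 1 h close to the 3 h arrays, and fell by 2.82 without that replicate and fell by 1.67 without replicate 1 at 1 h. Its 3 h mean of 5.82 was below the filter of 6.193, so the size rests on a level close to background. TNFSF18 (GITR ligand) rose by 1.51 (SE 0.32), and the TRAIL receptor TNFRSF10A by 0.68 (SE 0.13). TNFSF9, the ligand of 4-1BB, fell by 0.65 (SE 0.18), and LTBR, the lymphotoxin receptor, fell by 0.48 (SE 0.15, adjusted p = 0.0406), kept in 14 and 8 of the 18 fits leaving out 1 array.

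Among secreted enzymes that degrade matrix MMP7 rose, and 3 others rose from levels near background. Of 20 metalloproteinases and TIMPs tested, 4 were called higher (20%, against 4.98% of all genes) and 2 lower (10%, near the 8.33% of all genes; median 0.12). Because 3 of the 4 entered the test only through groups where they were higher, the higher share cannot be read as a result about the list. The 4 were secreted enzymes: MMP7 (matrilysin) read 7.50, 6.63 and 7.38 at 1 h and 9.50, 9.63 and 9.94 at 3 h. MMP1 (interstitial collagenase) read 5.79, 5.53 and 5.66 at 1 h and 7.27, 7.14 and 7.79 at 3 h. MMP10 (stromelysin-2) read 5.64, 5.84 and 5.49 at 1 h and 7.45, 7.33 and 7.55 at 3 h. The 1 h arrays of MMP1, MMP10 and MMP3 (stromelysin-1) all lay below the log2 filter of 6.193, so these 3 genes were tested only because other groups were higher, and their folds rest on a 1 h level close to background. MMP7 rose 5.74-fold (SE 0.30 on the log2 scale, adjusted p = 3.88e-05). MMP10 was 1.79 log2 units higher (SE 0.17, adjusted p = 4.61e-06), MMP1 1.74 (SE 0.22, adjusted p = 6.79e-05) and MMP3 1.39 (SE 0.26, adjusted p = 0.00251) than those levels. At 6 h the levels were 10.60 ± 0.68 for MMP7, 8.79 ± 0.42 for MMP10, 9.53 ± 0.59 for MMP1 and 8.73 ± 0.66 for MMP3 (SD, n = 3). MMP15, a membrane-bound member, fell by 0.73 (SE 0.15), and ADAMTS1, which cleaves proteoglycans, fell by 0.72 (SE 0.17).

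Of 14 plasminogen and coagulation genes, 4 were called higher (28.6%, against 4.98% of all genes) and none lower (median 0.26). SERPINE2 (protease nexin-1), an inhibitor of thrombin and plasminogen activators, read 8.88, 8.39 and 9.38 at 1 h and 11.46, 11.18 and 11.47 at 3 h. PLAT, the tissue plasminogen activator, read 8.42, 8.64 and 9.41 at 1 h and 10.69, 11.42 and 11.07 at 3 h. SERPINE2 rose 5.62-fold (SE 0.20 on the log2 scale, adjusted p = 9.13e-07) and PLAT 4.72-fold (SE 0.29, adjusted p = 9.06e-05), both without overlap. TFPI2, a protease inhibitor of the matrix, rose by 0.56 (SE 0.15), and thrombomodulin, THBD, by 0.42 (SE 0.12). Their calls held in 15 and 16 of the 18 fits leaving out 1 array, and neither held with spread from the 6 arrays alone. The urokinase gene PLAU, named after its values were seen, differed by 0.25 (SE 0.15) and was not called.

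Some receptors for the matrix and for other cells rose as well. Of 14 integrin subunits, 4 were called higher (28.6%, against 4.98% of all genes) and none lower (median 0.18). Over the 18 fits leaving out 1 array, 1 to 5 were called higher (1 without replicate 3 at 3 h). ITGA2, the collagen-binding subunit, read 8.83, 6.48 and 7.60 at 1 h and 10.38, 9.78 and 10.03 at 3 h, a rise of 2.43 (SE 0.43, adjusted p = 0.00143) without overlap but with the widest 1 h spread of the 12 largest rises. Without replicate 1 at 1 h the rise was 3.02, and without replicate 2 it was 1.85. ITGA5, the fibronectin receptor subunit, rose by 0.76 (SE 0.23, adjusted p = 0.0364), and ITGA6, a laminin receptor subunit, by 0.94 (SE 0.28, adjusted p = 0.0366) with overlapping groups, kept in 15 and 14 of those fits. Of 15 adhesion receptors, 6 were called higher (40%, against 4.98%) and none lower (median 0.38). CD44, the hyaluronan receptor, read 11.83, 11.10 and 11.86 at 1 h and 13.01, 12.85 and 13.09 at 3 h. ALCAM, a homotypic adhesion molecule, read 9.93, 8.59 and 8.88 at 1 h and 11.25, 10.52 and 10.74 at 3 h. SELE (E-selectin), the endothelial leukocyte receptor, read 6.41, 6.22 and 6.25 at 1 h and 6.97, 6.99 and 7.34 at 3 h. CD44 rose 2.61-fold (SE 0.17 on the log2 scale, adjusted p = 4.13e-05), ALCAM 3.25-fold (SE 0.31, adjusted p = 0.00165) and SELE 1.75-fold (SE 0.17, adjusted p = 0.00568). The 1 h arrays of SELE lay close to the filter of 6.193, so its fold rests on a level near background. ICAM1, named after its values were seen, stood at 12.73 ± 0.18 at 1 h and 13.09 ± 0.07 at 3 h (SD, n = 3), and its difference of 0.36 (SE 0.12, adjusted p = 0.0602) did not pass. Among the endothelial markers only CDH5 (VE-cadherin) was called, 0.75 higher (SE 0.12), and among the epithelial markers only ELF3, which fell by 0.89 (SE 0.17).

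The other large rises came from genes in no list. NAV3 read 7.74, 7.13 and 7.25 at 1 h and 11.15, 10.63 and 10.89 at 3 h, and stood at 10.39 ± 0.22 at 6 h (SD, n = 3). SGPP2, a phosphatase of sphingosine 1-phosphate, read 6.61, 6.11 and 6.78 at 1 h and 8.73, 9.04 and 9.07 at 3 h. B3GNT5, the glycosyltransferase that starts lacto-series glycolipids, read 7.88, 6.43 and 6.85 at 1 h and 9.47, 9.90 and 9.56 at 3 h. All 3 were clear of overlap. NAV3 rose by 3.52 (SE 0.20, adjusted p = 7.2e-09), SGPP2 by 2.44 (SE 0.19, adjusted p = 5.34e-07) and B3GNT5 by 2.59 (SE 0.34, adjusted p = 9.64e-05). Replicate 2 of SGPP2 at 1 h lay below the filter of 6.193. ABTB2, an ankyrin-repeat BTB protein, read 8.01, 8.84 and 8.56 at 1 h and 10.41, 11.31 and 10.84 at 3 h, a rise of 2.38 (SE 0.22).

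Of 8 EGF-family genes, 3 were called higher (37.5%, against 4.98% of all genes) and 2 lower (25%, against 8.33%). NRG1 (neuregulin), a ligand of ERBB3 and ERBB4, read 10.06, 8.56 and 9.64 at 1 h and 11.78, 11.32 and 11.53 at 3 h. HBEGF, a ligand of EGFR, read 9.86, 10.29 and 10.59 at 1 h and 11.49, 11.99 and 11.63 at 3 h. NRG1 rose 4.36-fold (SE 0.26 on the log2 scale, adjusted p = 4.85e-05), HBEGF 2.74-fold (SE 0.19, adjusted p = 0.000125) and EGFR 1.85-fold (SE 0.18, adjusted p = 0.00453). The receptor ERBB3 fell by 0.94 (SE 0.18), and ERBB2 fell by 0.69 (SE 0.20, adjusted p = 0.0321) with overlapping groups, kept in 14 of the 18 fits leaving out 1 array. Of 21 vascular and other growth factors, 4 were called lower (19%, against 8.33%) and 2 higher (9.52%, against 4.98%). GDF15, a stress-induced cytokine of the TGF-β family, read 13.08, 13.37 and 13.36 at 1 h and 10.34, 11.21 and 10.62 at 3 h, and fell by 2.54 (SE 0.23, adjusted p = 2.75e-06). ADM (adrenomedullin), a vasodilator peptide, fell by 1.28 (SE 0.19), PDGFB fell by 1.08 (SE 0.21) and VEGFB fell by 0.72 (SE 0.18). VEGFA rose by 0.70 (SE 0.18, adjusted p = 0.0203). The calls of VEGFB and VEGFA each held in 15 of the 18 fits leaving out 1 array.

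In the TGF-β and BMP pathway 5 of 25 genes were called higher and 5 lower. Each is 20% of the list, against 4.98% of all genes called higher and 8.33% called lower. The ubiquitin ligases SMURF1 and SMURF2, which mark SMAD proteins and receptors for breakdown, were both higher. SMURF2 read 11.20, 10.03 and 10.78 at 1 h and 12.53, 12.06 and 12.42 at 3 h, a rise of 1.67 (SE 0.22, adjusted p = 9.66e-05). SMURF1 rose by 0.92 (SE 0.11, adjusted p = 4.85e-05). The inhibitory SMADs were lower: SMAD7 read 8.42, 8.77 and 8.76 at 1 h and 7.33, 7.93 and 7.60 at 3 h and fell by 1.03 (SE 0.15), and SMAD6 fell by 0.68 (SE 0.15). The ligands TGFB2 and BMP6 rose by 0.92 (SE 0.20) and 0.79 (SE 0.19), and the co-receptor TGFBR3 fell by 0.98 (SE 0.17).

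Of 21 SOCS and JAK-STAT genes, 4 were called higher (19%, against 4.98% of all genes) and 3 lower (14.3%, against 8.33%; median 0.28). STAT5A, a transcription factor below cytokine receptors, read 6.54, 7.04 and 6.97 at 1 h and 7.94, 8.53 and 8.27 at 3 h, a rise of 1.39 (SE 0.15, adjusted p = 2.04e-05). CISH, a feedback inhibitor of STAT5 signalling, fell by 0.68 (SE 0.12), and the kinases PIM3 and PIM1 fell by 0.90 (SE 0.20) and fell by 0.68 (SE 0.19). Of 22 interferon factors and interferon-stimulated genes, 4 were called higher (18.2%, against 4.98%) and 2 lower (9.09%, near the 8.33% of all genes). Over the 18 fits leaving out 1 array these counts were 2 to 4 and 0 to 6. The cytosolic RNA sensor RIGI read 8.34, 7.44 and 7.52 at 1 h and 9.25, 8.93 and 9.09 at 3 h, a rise of 1.32 (SE 0.27, adjusted p = 0.00422). IFIT5, which binds viral RNA ends, rose by 1.12 (SE 0.25), and the second RNA sensor IFIH1 by 0.93 (SE 0.25), a call kept, like that of PIM1, in 14 of the 18 fits leaving out 1 array. IRF1, the early interferon regulatory factor, fell by 0.85 (SE 0.23, adjusted p = 0.0245), with replicate 2 at 3 h inside the range of the 1 h arrays, and kept its call in 14 of those fits.

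Regulators of AU-rich mRNA decay, the process that clears cytokine and immediate early transcripts, were called lower in 4 and higher in 3 of 19 tested. These are 21.1% and 15.8%, against 8.33% and 4.98% of all genes. Over the 18 fits leaving out 1 array, 1 to 8 were called higher. ZFP36 (tristetraprolin) read 11.74, 12.31 and 12.07 at 1 h and 10.08, 10.88 and 10.16 at 3 h. Its relative ZFP36L1 read 12.79, 12.86 and 12.87 at 1 h and 11.83, 11.97 and 11.82 at 3 h. ZFP36 fell by 1.67 (SE 0.22, adjusted p = 9.86e-05), ZFP36L1 fell by 0.96 (SE 0.11, adjusted p = 3.83e-05) and TOB1, which recruits deadenylases, fell by 1.22 (SE 0.16). The endonuclease gene ZC3H12C, a relative of regnase-1, read 7.89, 6.48 and 6.95 at 1 h and 8.90, 8.71 and 8.73 at 3 h, a rise of 1.67 (SE 0.29, adjusted p = 0.0011). RC3H1 (roquin-1) rose by 1.23 (SE 0.33, adjusted p = 0.0229) with overlapping groups, kept in 14 of the 18 fits leaving out 1 array.

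**Figure D4:**
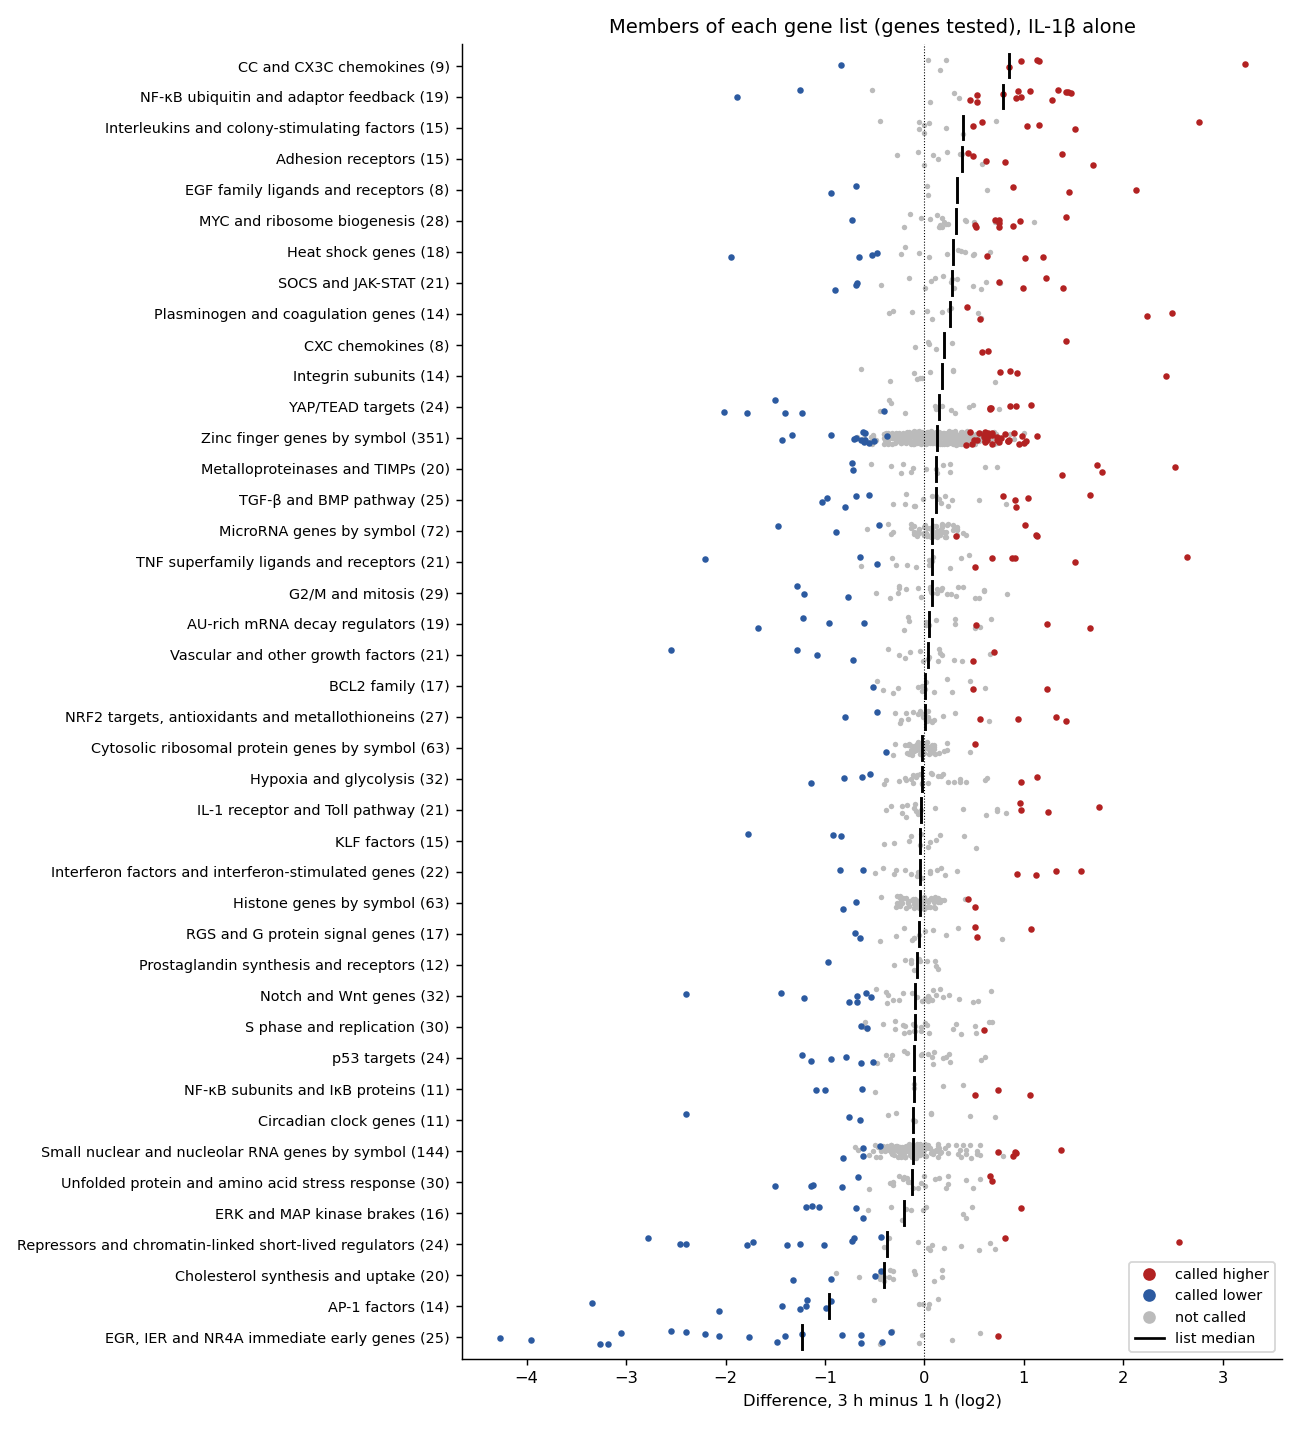
Each row is a gene list with the number of its genes tested, each point 1 gene at its log2 difference (3 h minus 1 h), red where called higher, blue where called lower and grey where not called; black bars mark the list median and vertical scatter within a row has no meaning. The EGR, IER and NR4A genes (median -1.23) and the AP-1 factors (median -0.96) lie furthest left, and the CC and CX3C chemokines (0.85) and NF-κB feedback genes (0.80) furthest right.

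Of 30 genes of the unfolded protein and amino acid stress response, 5 were called lower and 2 higher (median -0.13). The lower share was 16.7%, against 8.33% of all genes tested, and the higher share 6.67%, near the 4.98% of all genes. DDIT3 (CHOP), a factor of endoplasmic reticulum stress, read 9.37, 8.84 and 9.13 at 1 h and 7.47, 7.62 and 7.73 at 3 h. It fell by 1.50 (SE 0.15, adjusted p = 5.53e-06), CEBPD, an acute-phase factor, fell by 1.12 (SE 0.16) and PPP1R15A (GADD34), which restores translation, fell by 1.14 (SE 0.18). XBP1, which enlarges the secretory pathway, rose by 0.68 (SE 0.12, adjusted p = 0.00136). Of 18 heat shock genes, 3 were called higher (16.7%, against 4.98%) and 4 lower (22.2%, against 8.33%). Over the fits leaving out 1 array these counts were 1 to 9 and 1 to 5. DNAJB4, an HSP40 co-chaperone, read 10.08, 8.76 and 8.65 at 1 h and 7.02, 7.71 and 6.91 at 3 h and fell by 1.95 (SE 0.30), and DNAJA1 rose by 1.01 (SE 0.20). Of 27 NRF2 targets, antioxidants and metallothioneins, 4 were called higher and 2 lower (14.8% and 7.41%, against 4.98% and 8.33% of all genes tested), with 2 to 6 and 0 to 4 over the fits leaving out 1 array. GCLM and GCLC, the modifier and catalytic subunits of the enzyme that limits glutathione synthesis, moved apart. GCLM read 7.28, 6.44 and 6.79 at 1 h and 8.65, 7.83 and 8.31 at 3 h, a rise of 1.42 (SE 0.22, adjusted p = 0.000391), while GCLC fell by 0.80 (SE 0.22, adjusted p = 0.0251) with overlapping groups. TXNRD1, thioredoxin reductase, rose by 1.32 (SE 0.25), and SOD2, the mitochondrial superoxide dismutase that NF-κB induces, by 0.94 (SE 0.22, adjusted p = 0.0111). The calls of GCLC and SOD2 held in 15 and 17 of the 18 fits leaving out 1 array.

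Cholesterol synthesis and uptake genes were called lower in 4 of 20 (20%, against 8.33% of all genes) and higher in none, with a median of -0.40. With the replicate block 11 were called lower. MVK, mevalonate kinase, read 8.65, 9.66 and 8.96 at 1 h and 7.35, 8.21 and 7.75 at 3 h and fell by 1.32 (SE 0.22, adjusted p = 0.00106), and the lipogenic factor SREBF1 fell by 0.94 (SE 0.19). NSDHL and SQLE were the others; their groups overlapped, and they kept their calls in 6 and 5 of the 18 fits leaving out 1 array, so that 2 to 11 of the list were called lower over those fits. Of 32 hypoxia and glycolysis genes, 4 were called lower and 2 higher, shares of 12.5% and 6.25% that lie near the 8.33% and 4.98% of all genes tested. HK2, the inducible hexokinase, read 7.42, 7.42 and 7.83 at 1 h and 8.98, 8.31 and 8.78 at 3 h, a rise of 1.13 (SE 0.18), and stood at 9.84 ± 0.22 at 6 h (SD, n = 3). HIF1A rose by 0.97 (SE 0.23, adjusted p = 0.01). SLC2A3, the GLUT3 glucose transporter, fell by 1.14 (SE 0.15), and PFKFB3, which stimulates glycolysis, fell by 0.62 (SE 0.15). The calls of HIF1A and PFKFB3 held in 17 and 16 of the 18 fits leaving out 1 array. Of 12 prostaglandin genes, PTGER4, an E2 receptor, was the member called, and fell by 0.97 (SE 0.18). The share called lower was 8.33%, the same as for all genes tested. PTGS2 (COX-2), named after its values were seen, differed by -0.20 (SE 0.18, adjusted p = 0.543), and by -0.47 (adjusted p = 0.0296) without replicate 2 at 1 h.

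Of 59 genes of G2/M, mitosis and S phase, 6 were called (10.2%), near the 13.3% of all genes tested. Of 29 genes of G2/M and mitosis, 3 were called lower and none higher: the phosphatases CDC25B and CDC25C, which start mitosis, fell by 1.28 (SE 0.20) and fell by 1.21 (SE 0.19), and FOXM1 fell by 0.76 (SE 0.23), kept in 13 of the 18 fits leaving out 1 array. Of 30 S phase genes 1 was called higher, CCNE1 (cyclin E1, 0.60, SE 0.13), and 2 lower, ORC1 and RFC4, kept in 17 and 16 of those fits. Of 24 p53 targets 6 were called lower (25%, against 8.33% of all genes) and none higher. Among the 6 were SERTAD1, which fell by 1.23 (SE 0.17), and TP53INP1, which fell by 1.14 (SE 0.25). In the BCL2 family of cell death regulators, BCL2A1, an NF-κB-induced survival protein, read 5.50, 5.49 and 6.02 at 1 h and 6.75, 7.03 and 6.94 at 3 h and rose by 1.23 (SE 0.18, adjusted p = 0.000347); its 1 h arrays lay below the filter of 6.193, so the size rests on a level close to background. BID rose by 0.49 (SE 0.14), kept in 15 of the 18 fits leaving out 1 array, and BMF, a pro-death member, fell by 0.52 (SE 0.12). Of 28 genes of MYC and ribosome biogenesis, 9 were called higher (32.1%, against 4.98%) and 1 lower (3.57%, against 8.33%), with a median of 0.32. Over the 18 fits leaving out 1 array, however, 2 to 12 were called higher. The count was 2 without replicate 3 at 3 h, 3 without replicate 1 at 3 h and 4 without replicate 2 at 1 h. DDX21, a nucleolar helicase, read 10.93, 9.05 and 9.66 at 1 h and 11.62, 11.08 and 11.20 at 3 h. Its rise of 1.42 (SE 0.35, adjusted p = 0.0133) came with the lowest value in replicate 2. The call of DDX21 held in 15 of the 18 fits leaving out 1 array. The member called lower was MYC itself, from 11.83, 12.01 and 11.99 to 11.13, 11.32 and 11.21, which fell by 0.72 (SE 0.10, adjusted p = 0.000247).

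Lists made by symbol served as a background of many genes. The shares called were 3.17% of ribosomal protein, 6.35% of histone and 6.25% of small nuclear and nucleolar RNA genes. For zinc finger genes the share was 13.1%, and for all genes tested 13.3%. Of 63 cytosolic ribosomal protein genes, 1 was called higher and 1 lower (RPL28, kept in 4 of the 18 fits leaving out 1 array), with a median of -0.02. Of 63 histone genes, 2 were called in each direction, and near-identical copies such as H3-3B and H3-5 may share probes. Of 351 zinc finger genes named ZNF, 33 were called higher and 13 lower (median 0.13), with 8 to 116 and 9 to 28 over the 18 fits leaving out 1 array (8 higher without replicate 3 at 3 h, 116 without replicate 1 at 1 h). Of 144 small nuclear and nucleolar RNA genes, 5 were called higher and 4 lower, and the lower calls ran from 0 to 34 over those fits (34 without replicate 2 at 3 h). SNORD50B, a guide RNA for rRNA methylation, read 7.18, 6.64 and 6.82 at 1 h and 7.69, 8.84 and 8.23 at 3 h, a rise of 1.38 (SE 0.23, adjusted p = 0.00108). SNORD28, SNORD75 and SNORD30 rose by 0.92 (SE 0.17), 0.89 (SE 0.17) and 0.91 (SE 0.18).

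Of 72 microRNA genes by symbol, 4 were called higher and 3 lower (9.72% called, against 13.3% of all genes tested). The symbol pattern also took the host transcripts MIR31HG and MIRLET7BHG, so 5 of the 7 are microRNA genes, and array probes at such a gene cannot tell the hairpin from its host transcript. The mature RNAs of the 3 genes with the largest differences are given from RefSeq because MIR31 and MIR15B were called higher and MIR30A lower; capitals mark the seed, bases 2 to 8.
hsa-miR-31-5p: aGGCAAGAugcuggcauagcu
hsa-miR-15b-5p: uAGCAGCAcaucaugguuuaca
hsa-miR-15b-3p: cGAAUCAUuauuugcugcucua
hsa-miR-30a-5p: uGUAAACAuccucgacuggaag
hsa-miR-30a-3p: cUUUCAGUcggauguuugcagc

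No seed was shared among them. MIR31 read 6.91, 5.97 and 6.45 at 1 h and 7.38, 8.09 and 7.27 at 3 h, and its host transcript MIR31HG read 5.63, 5.56 and 5.49 at 1 h and 6.48, 6.29 and 6.96 at 3 h. They rose by 1.14 (SE 0.33, adjusted p = 0.0334) and 1.02 (SE 0.17, adjusted p = 0.00101), without overlap, and MIR31 kept its call in 14 of the 18 fits leaving out 1 array. The 1 h arrays of MIR31HG lay below the filter, as did the 1 h mean of MIR15B (5.92). MIR15B, a member of the family that represses BCL2 and cyclins, rose by 1.12 (SE 0.25, adjusted p = 0.00759). MIR30A read 7.81, 8.45 and 7.62 at 1 h and 6.65, 6.40 and 6.40 at 3 h and fell by 1.47 (SE 0.17, adjusted p = 2.71e-05).

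The same interval was measured in cells that also held aminaphtone, and the change without the drug was tested against the change with it. The difference of the changes passed for 2 of 15796 clusters (0.0127%), against 2228 at an unadjusted p of 0.05. PRDM1 went from 9.39 ± 0.23 to 6.93 ± 0.02 without the drug and from 8.09 ± 0.20 to 6.87 ± 0.10 with it (SD, n = 3 each). MIDEAS went from 10.77 ± 0.20 to 7.99 ± 0.09 without the drug and from 9.87 ± 0.11 to 8.24 ± 0.16 with it. For both the 1 h level was higher without the drug and the 3 h levels were close, and the change without the drug minus the change with it was -1.24 (SE 0.17) for PRDM1 and -1.15 (SE 0.17) for MIDEAS, each with an adjusted p of 0.0232. Of the next 6 by p none passed: TLE1, a Groucho corepressor, changed by -0.87 without the drug and 0.18 with it (adjusted p = 0.167 for the difference), and FOS by -2.06 and -3.13 (adjusted p = 0.254). For the large changes described above the values in the drug arm were, side by side, 2.38 for NAV3, 3.84 for CCL5, 2.19 for IL1B, -3.10 for NR4A2, -3.81 for NR4A1 and -2.61 for EGR1, and none of these differences of changes passed, which does not show that the changes were equal. With the replicate block the difference passed for 340 clusters, with the block over all 6 groups for none (2393 at an unadjusted p of 0.05 in limma). It passed for none in 10 of the 18 fits leaving out 1 array (1113 to 2024 at an unadjusted p of 0.05 in limma) and for 3967 without replicate 1 at 1 h.

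**Figure D5:**
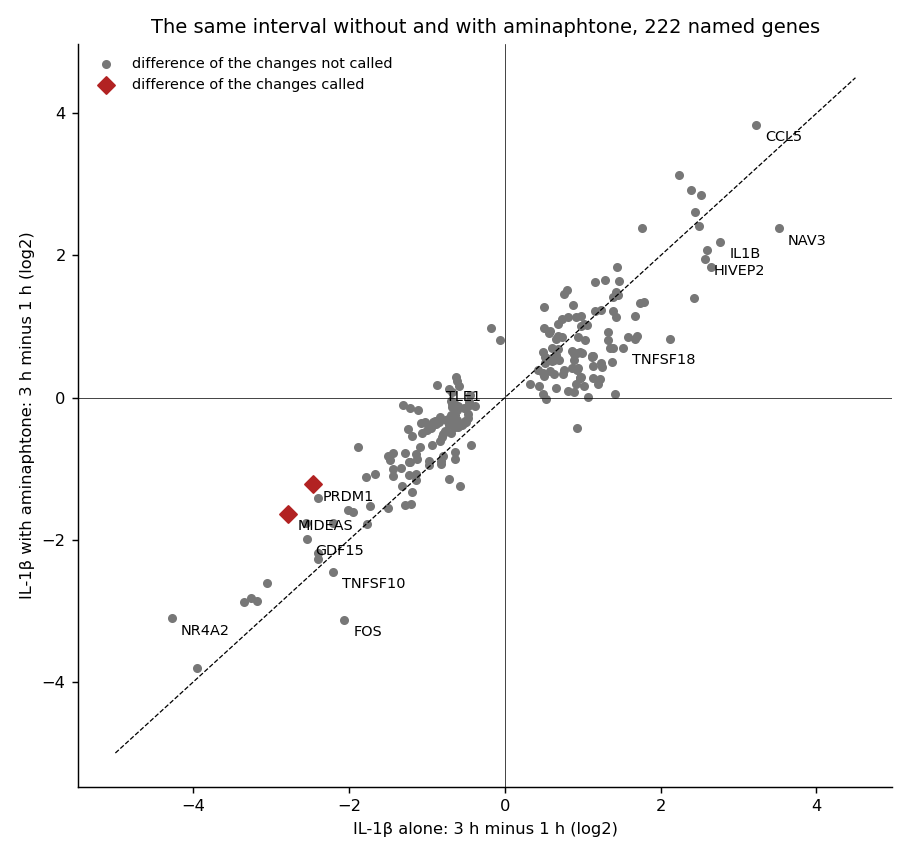
Each point is 1 of 222 named genes, with its log2 change from 1 to 3 h under IL-1β alone on the horizontal axis and under IL-1β with aminaphtone on the vertical axis; the dashed line marks equal changes. Red diamonds are PRDM1 (-2.46 and -1.22) and MIDEAS (-2.78 and -1.63), the genes whose changes differed at an adjusted p of 0.0232.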

How the data were processed

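RNA of each sample was hybridised to 1 Affymetrix Human Gene 1.0 ST array. The authors made and deposited 1 log2 signal for each transcript cluster and array, with RMA in Affymetrix Expression Console, per the submitters' processing notes; the version and genome build are not given in the sources used here. Values ran from 1.85 to 14.25, with array medians from 6.926 to 7.055. Of 28869 clusters, 19310 carried 1 symbol, 1752 several and 7807 none, and 19279 of the first were matched to RefSeq. Clusters with a symbol and a mean above the 25th percentile (log2 6.193) were tested. Of several clusters of a gene, the one with the highest mean was taken; among called genes GPATCH4, LRRFIP1, RPL27A and WEE1 had clusters that differed in sign and are not described.

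limma 3.58.1 in R 4.3.3 was fitted to all 18 arrays with a mean per group, and the 3 h minus 1 h control contrast was tested two-sided with Benjamini-Hochberg adjustment over 15796 clusters at 0.05. Same-numbered 1 h and 3 h arrays deviated together. Correlations of their deviations from the group means were 0.313, 0.359 and 0.258 for replicates 1, 2 and 3, and 6 of 6 arrays correlated best with their own number. The main fit held no replicate block, and the pairs entered only the alternative fits with a block. Named genes were the 12 largest rises and falls among called genes without overlap, the 4 called genes of smallest p in each direction in each of 42 lists, and the 8 smallest p of the difference between the arms; others are marked in the text. Members and lists were chosen with earlier results of these data known. The number of arrays limits the precision. The code was tested on simulated data.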

Additional observations from a re-analysis of the deposited data

Results flagged for a closer look

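PRDM1 and MIDEAS changed differently between 1 and 3 h in the 2 arms of the study, by limma's test of the difference itself in the main fit. The change without aminaphtone minus the change with it was -1.24 (SE 0.17) for PRDM1 and -1.15 (SE 0.17) for MIDEAS, with an adjusted p of 0.0232 for both. These calls depended on the fit. No cluster passed the test in 10 of the 18 fits leaving out 1 array, nor with the replicate block over all 6 groups. With the trended robust variance 1 cluster passed, and with the replicate block of the 1 h and 3 h control arrays 340 did.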

How the results depend on the processing

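Of 220 called named genes 0 reversed in any of the alternatives run, but counts and calls moved. In all 18 fits that left out 1 array 153 passed, and 83 passed in those and in all other fits run for them. Those other fits numbered 9, or 8 for genes below the 50th-percentile filter. With spread from the 6 arrays alone 137 were lost, without replicate 2 at 1 h 41, and with the replicate block of the 1 h and 3 h control arrays 0. That block called 3837 clusters (1560 higher, 2277 lower), the 6 arrays alone 228 (92, 136), the 9 control arrays 630 (257, 373), and array weights, whose fit stopped before convergence, 9640 (4254, 5386). Asking for 1 log2 unit as well left 392 (206, 186). Leaving out 1 array gave 988 to 5719 clusters, 399 to 2643 higher and 550 to 3076 lower; the highest counts were without replicate 1 at 1 h and 988 without replicate 1 at 3 h. The replicate block over all 6 groups, median centring, a trended robust variance, no filter and a 50th-percentile filter gave 2292, 1925, 1933, 1927 and 1755. The difference between the arms passed for 340 clusters with the paired block, 0 with the block over all groups (limma, 2393 at an unadjusted p of 0.05), 1 with the trended variance, 8229 with array weights, and 0 to 3967 leaving out 1 array. Causes of these shifts were not tested. RMA signals near the array floor compress low levels.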
